A study of Mus musculus with 6 samples.

Results

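AP-1 and immediate early genes are represented here by 10 genes: the Fos subunit genes Fos, Fosb, Fosl1 and Fosl2, the Jun subunit genes Jun, Junb and Jund, and Egr1, Atf3 and Ier2. They were chosen by gene symbol, with earlier results of these data known. Every probe set that the array's annotation assigns to one of them was taken, 14 of the 45037 tested. Wnt1-YL is a mouse mammary carcinoma line established from an MMTV-Wnt1 animal of strain FVB/n, in which the mammary tumor virus promoter drives Wnt1. The compared cells were Wnt1-YL cells given an shRNA against Sca-1 (shSca-1, n = 3 arrays) and Wnt1-YL cells given an shRNA against luciferase (shLuc, n = 3 arrays). The study names pLKO lentiviral vectors for the shRNA against Sca-1 and does not give the backbone of the luciferase shRNA separately. Transduced cells were selected with puromycin, and all cells grew in culture in medium with serum, insulin and EGF. The question behind the comparison is which genes differ when Sca-1, a small GPI-anchored surface protein encoded by Ly6a, is repressed. The labels call the replicates biological and do not say whether each came from its own culture, so p-values measure the spread between these arrays.

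AP-1 is a dimer of leucine zipper proteins, usually a Jun protein with a Fos protein, that binds short DNA elements and controls genes of proliferation, migration and matrix breakdown. Some of its genes, such as Fos and Jun, belong to the immediate early genes. Growth factors such as EGF switch immediate early genes on within minutes through MAP kinases and the factors SRF and ELK, without new protein synthesis. The Fos proteins pair only with partners such as Jun, whereas Jun proteins can also pair among themselves or with ATF and CREB proteins. In breast cells, Fosl1 is known for its high level in basal-like and invasive tumor lines.

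The probe sets were summarised by the authors as linear intensities, which rank arrays for a probe set but not genes against each other. Array medians lay between 37.3 and 40.7. Ly6a read 285, 314 and 306 on the shSca-1 arrays, against 7646, 7362 and 2843 on the shLuc arrays. Every shSca-1 array was below every shLuc array, with a log2 fold change of -4.17 (SE 0.36, adjusted p = 0.051 from limma). Leaving out shLuc replicate 3 gave -4.64, where limma returned an adjusted p of 5.2e-07. The array of shLuc replicate 3 stood apart from the other 5. The 8 luminal epithelial markers were all highest there, with Krt18 at 7175 against at most 65.2 elsewhere, and their summed intensity was 365 to 385 on shSca-1 arrays and 322 to 17138 on shLuc arrays. On this array 135 probe sets read 500 or more and over 10 times every other array, beside 0 on each of the others. Its highest Pearson's r of log2 values with another array was 0.924, where the others had at least 0.957. The labels give 1 line, Wnt1-YL, for all arrays, and whether this array holds the same cell population was not tested. No source used here says whether the selected cells were clones. The basal keratins Krt5 and Krt14 were abundant on all arrays, at 10047 to 11849 on shSca-1 arrays and 3141 to 10187 on shLuc arrays. The 5 basal markers summed to 27971 to 34623 on shSca-1 arrays and to 15205 to 31391 on shLuc arrays, lowest on shLuc replicate 3. Fibroblast, leukocyte and endothelial markers summed to at most 378, 500 and 130 on shSca-1 arrays and 318, 586 and 132 on shLuc arrays. The endothelial marker Pecam1 was at 1.52 to 2.41 on shSca-1 arrays and at 1 on shLuc arrays, the floor of the data. The part of the luminal and basal signals in the differences given here was not tested, and values without shLuc replicate 3 are given beside the results it moves. In RNA from whole cultures, fewer cells of a kind and less RNA per cell cannot be told apart.

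The promoters of Jun, Fos and Fosl2 are shown because the results turn on these AP-1 subunit genes. In shSca-1 cells Jun lay lower on both probe sets, Fosl2 on its brighter probe set only, and Fos was not lower. Of the 10 genes, 7 were matched in the RefSeq promoter table (GRCm38.p6), and Egr1, Fosl1 and Ier2 were not. Each sequence is the 250 bases before the annotated start, read 5′ to 3′ on the gene's strand, and capitals mark matches to the motifs searched.

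Jun (chr4:95052223-95052472, minus strand): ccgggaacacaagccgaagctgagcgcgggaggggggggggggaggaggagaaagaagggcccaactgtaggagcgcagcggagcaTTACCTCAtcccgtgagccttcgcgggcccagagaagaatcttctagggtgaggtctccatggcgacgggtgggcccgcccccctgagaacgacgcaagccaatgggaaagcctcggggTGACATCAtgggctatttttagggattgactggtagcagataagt

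Fos (chr12:85473640-85473889, plus strand): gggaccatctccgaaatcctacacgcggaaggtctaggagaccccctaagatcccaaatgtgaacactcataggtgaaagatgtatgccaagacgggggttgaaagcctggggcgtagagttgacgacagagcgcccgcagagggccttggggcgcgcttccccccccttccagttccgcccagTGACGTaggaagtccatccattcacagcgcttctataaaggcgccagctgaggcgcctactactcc

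Fosl2 (chr5:32136222-32136471, plus strand): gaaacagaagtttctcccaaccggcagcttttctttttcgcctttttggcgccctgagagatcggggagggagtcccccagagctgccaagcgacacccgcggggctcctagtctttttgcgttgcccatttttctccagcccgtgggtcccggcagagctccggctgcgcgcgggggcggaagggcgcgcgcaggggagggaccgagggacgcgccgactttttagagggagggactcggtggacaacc

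The motifs were the AP-1 element TGACTCA, the cyclic AMP element TGACGTCA and its core TGACGT, 2 elements known from the Jun promoter, TGACATCA and TGAGGTAA, and the CArG box that SRF binds, each on both strands. The core is contained in the full cyclic AMP element. The Jun window held TGACATCA 45 to 38 bases before the start and TTACCTCA, the reverse complement of TGAGGTAA, 164 to 157 bases before it. Jun dimers with ATF proteins are known to bind these elements, which lets Jun act on its own gene. Among 32851 promoter windows of the same length, 2.93% held TGACATCA and 0.728% held TGAGGTAA. The Fos window held the core TGACGT 66 to 61 bases before the start, as did 6.47% of windows, and Atf3 held the same core on its other strand, as ACGTCA, 8 to 3 bases before the start. No searched motif matched in the windows of Fosl2, Fosb, Junb or Jund. TGACTCA, TGACGTCA and the CArG box matched in none of the 7 windows searched and in 4.46%, 1.55% and 1.47% of all windows. Bases upstream of these windows were not searched, so sites farther away would be missed. A match is a description of letters only.

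Jun was the member with the clearest difference, and it was lower in shSca-1 cells on both of its probe sets. Jun encodes the Jun subunit with the strongest activating role in AP-1. Its brighter probe set, 1417409_at, read 582, 671 and 591 on the shSca-1 arrays, against 1034, 950 and 1353 on the shLuc arrays. The other, 1448694_at, read 422, 430 and 401 on the shSca-1 arrays, against 643, 626 and 776 on the shLuc arrays. On both probe sets every shSca-1 array lay below every shLuc array, and shLuc replicate 3 was the highest. The means of the brighter were 615 ± 49.0 in shSca-1 cells and 1112 ± 212 in shLuc cells (SD, n = 3 each), a log2 fold change of -0.84 (SE 0.15, unadjusted p = 8.4e-04, adjusted p = 0.18 from limma over all probe sets). For the other it was -0.70 (SE 0.12, unadjusted p = 6.1e-04, adjusted p = 0.16 from limma). Without shLuc replicate 3 the values were -0.69 and -0.60, with adjusted p of 0.014 and 0.015 from limma. That fit compares 3 shSca-1 arrays with 2 shLuc arrays, and the array left out was singled out after its values were seen. It called 1244 of all probe sets at an adjusted p under 0.05, whereas leaving out any other single array called none. The 2 Jun probe sets had a Pearson's r of 0.990 over the 6 arrays, which they share, so they are not independent measurements.

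**Figure D1:**
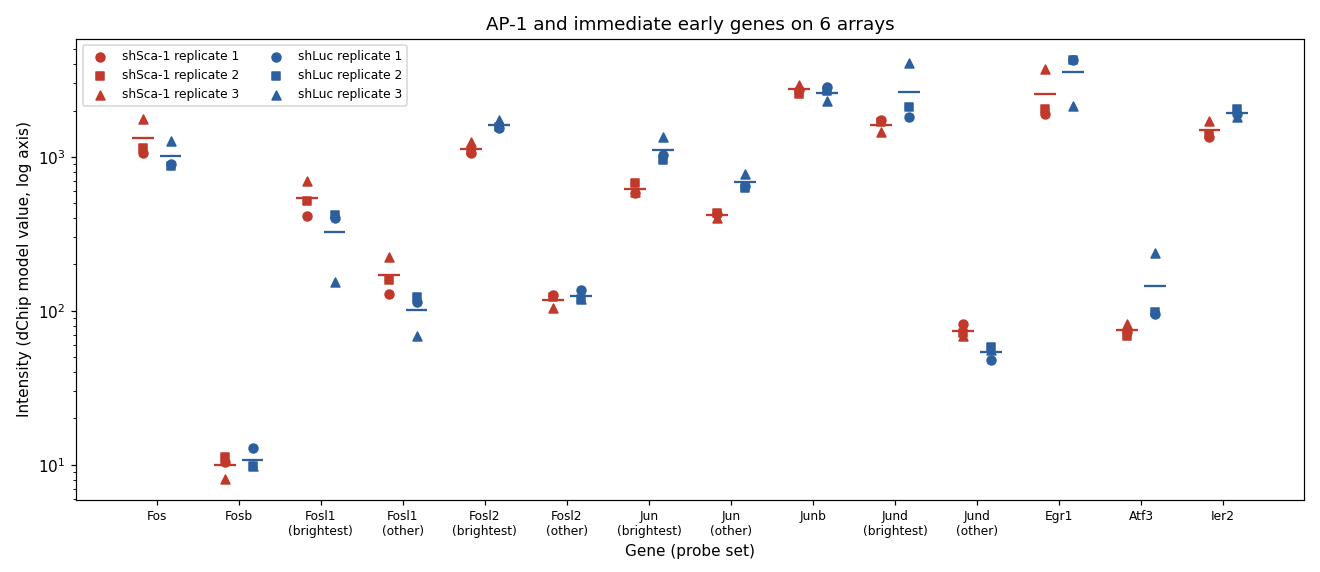
Intensity of the 14 probe sets (log axis) on each array, shSca-1 in red and shLuc in blue; marker shapes are replicates and lines are means of 3 arrays. All 3 shSca-1 arrays lie below all 3 shLuc arrays for Jun on both probe sets, while Egr1 and Fos overlap.

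At the study's thresholds, which ask for an unadjusted p under 0.01 and a difference of mean log2 values beyond a fold of 1.5, the 2 Jun probe sets were the only ones of the 14 that passed. Both were lower, beside 1.33% of all probe sets called lower and 0.500% called higher. Of all probe sets past these thresholds 72.7% were lower, a share that was 59.5% with quantile-normalized arrays and 61.0% with median-centred ones. At an adjusted p under 0.05, limma called 0 of the 14, as it did 0% of all 45037, of which 4170 had an unadjusted p under 0.05, while the methods' t-test with equal variances called 4. Among the 14, 6 had an unadjusted p under 0.05. Lower among these were both Jun probe sets, the brighter one of Fosl2 and that of Ier2, and higher were the dimmer ones of Fosl1 and Jund. Without shLuc replicate 3, limma called 3 of the 14 lower at an adjusted p under 0.05, beside 1.92% of all probe sets, and 0 higher, beside 0.842%. They were both Jun probe sets and the brighter one of Fosl2. With 3 arrays a group, the smallest two-sided p of an exact permutation test is 0.1. The Jun probe sets are among those the study listed from these arrays, so their direction has no independent support.

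Junb encodes a subunit that activates less strongly than Jun and can restrain it. Its intensity was 2717, 2560 and 2942 on the shSca-1 arrays, against 2838, 2691 and 2315 on the shLuc arrays. The groups overlapped, and the log2 fold change was 0.07 (SE 0.11, adjusted p = 0.87 from limma), or -0.015 without shLuc replicate 3.

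Jund, which encodes a subunit that is present in resting cells and changes little with growth factors, depended on the probe set. The brighter, 1449117_at, read 1728, 1677 and 1448 on the shSca-1 arrays, against 1803, 2096 and 4056 on the shLuc arrays. Every shSca-1 array was below every shLuc array, but the gap was set mostly by shLuc replicate 3, at 2.08 times the mean of the other shLuc arrays. The log2 fold change was -0.62 (SE 0.29, adjusted p = 0.58 from limma). Leaving that array out gave -0.27, with an adjusted p of 0.24 from limma. The dimmer probe set, 1440265_at, read 82.4, 71.9 and 68.3 on the shSca-1 arrays, against 47.7, 58.5 and 55.8 on the shLuc arrays. It lay the other way, at 0.46 (SE 0.19, adjusted p = 0.53 from limma), and its r with the brighter one was -0.41 over the 6 arrays.

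Fosl2, the gene of Fra-2, a Fos protein that lacks the strong activation domain of Fos, was lower on its brighter probe set. That probe set, 1437247_at, read 1053, 1085 and 1242 on the shSca-1 arrays, against 1550, 1564 and 1741 on the shLuc arrays. The groups did not overlap, and replicate 3 was the highest array of either group. The means were 1127 ± 101 in shSca-1 cells and 1618 ± 107 in shLuc cells (SD, n = 3 each), a log2 fold change of -0.52 (SE 0.10, unadjusted p = 0.0015, adjusted p = 0.22 from limma), which is under the fold of 1.5. Leaving out shLuc replicate 3 gave -0.47, with an adjusted p of 0.037 from limma. The dimmer probe set, 1422931_at, read 127, 123 and 104 on the shSca-1 arrays, against 137, 120 and 119 on the shLuc arrays. These overlapped, with a log2 fold change of -0.09 (SE 0.16, adjusted p = 0.89 from limma) and an r of 0.09 with the brighter one.

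Fosl1, the gene of Fra-1, had its highest values on shSca-1 arrays, on both probe sets. The brighter, 1417487_at, read 412, 516 and 701 on the shSca-1 arrays, against 399, 419 and 154 on the shLuc arrays. The groups overlapped by the lowest shSca-1 and the highest shLuc array, and shLuc replicate 3 was far below the rest. The dimmer, 1417488_at, read 128, 158 and 224 on the shSca-1 arrays, against 114, 123 and 68.1 on the shLuc arrays. Here the groups did not overlap, and the r of the 2 probe sets was 0.969 over the 6 arrays. The log2 fold changes were 0.84 (SE 0.40, adjusted p = 0.59 from limma) and 0.75 (SE 0.30, adjusted p = 0.52 from limma). Leaving out shLuc replicate 3 gave 0.37 and 0.48 (adjusted p = 0.41 and 0.35 from limma), so neither passed with or without that array.

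Fos, the founding immediate early member of its family, was not lower in shSca-1 cells. Its intensity was 1052, 1146 and 1753 on the shSca-1 arrays, against 897, 869 and 1261 on the shLuc arrays. The highest array of each group was its replicate 3, and the groups overlapped through shLuc replicate 3. The log2 fold change was 0.37 (SE 0.23, adjusted p = 0.68 from limma), 0.54 without shLuc replicate 3 (adjusted p = 0.22 from limma) and 0.14 without shSca-1 replicate 3 (adjusted p = 0.88 from limma). Fosb, whose product resembles Fos, read 10.4, 11.3 and 8.12 on the shSca-1 arrays, against 12.9, 9.76 and 9.76 on the shLuc arrays. All lay well below the array medians, so a difference in Fosb was not detectable at this signal.

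**Figure D2:**
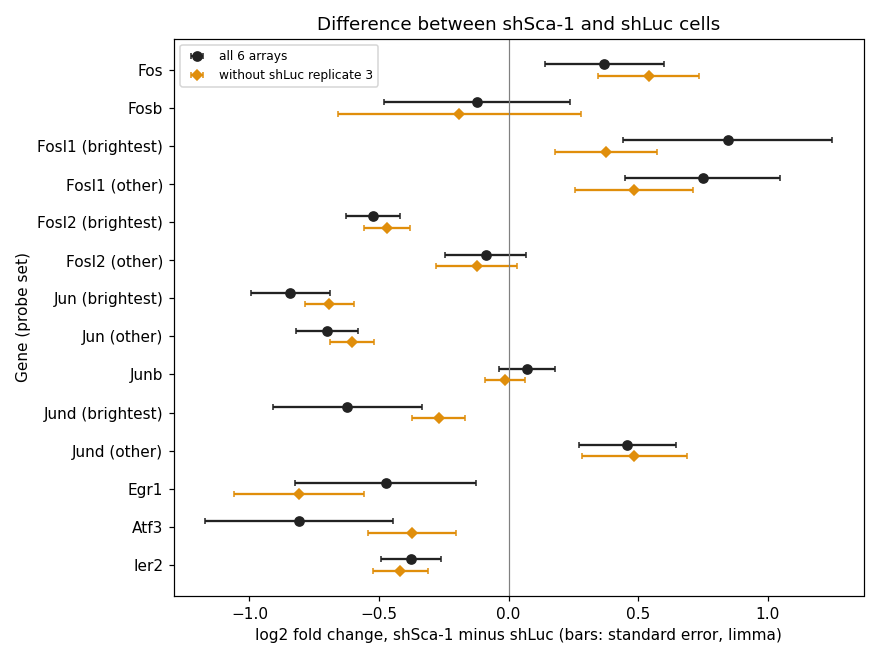
Differences of mean log2 intensity (shSca-1 minus shLuc) for each of the 14 probe sets, with all 6 arrays (black circles) and without shLuc replicate 3 (orange diamonds); bars are standard errors from limma. Both Jun probe sets lie between -0.84 and -0.60 in both fits, and the 2 Jund probe sets lie on opposite sides of 0.

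Egr1, the gene of a zinc finger factor and a classical target of SRF, varied widely within both groups. Its intensity was 1899, 2054 and 3708 on the shSca-1 arrays, against 4266, 4270 and 2127 on the shLuc arrays. In each group 2 arrays lay close together and replicate 3 lay apart, near the other group. The log2 fold change was -0.47 (SE 0.35, adjusted p = 0.73 from limma), -0.81 without shLuc replicate 3 (unadjusted p = 0.013, adjusted p = 0.16 from limma) and -0.78 without shSca-1 replicate 3 (adjusted p = 0.65 from limma).

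Ier2, an immediate early gene of a small nuclear protein, read 1355, 1398 and 1698 on the shSca-1 arrays, against 1903, 2044 and 1805 on the shLuc arrays. All shSca-1 arrays were below all shLuc arrays, with shSca-1 replicate 3 nearest. The log2 fold change was -0.38 (SE 0.12, unadjusted p = 0.014, adjusted p = 0.40 from limma), and -0.42 without shLuc replicate 3 (adjusted p = 0.093 from limma).

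Atf3, the gene of a stress-induced factor that pairs with Jun proteins, read 73.0, 69.0 and 82.1 on the shSca-1 arrays, against 95.0, 97.9 and 239 on the shLuc arrays. The groups did not overlap, and shLuc replicate 3 was 2.48 times the mean of the other shLuc arrays. The log2 fold change was -0.81 (SE 0.36, adjusted p = 0.57 from limma). Leaving that array out gave -0.37, with an adjusted p of 0.34 from limma.

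Over the members, 6 of the 14 probe sets had all shSca-1 arrays below all shLuc arrays, where 9.81% of all probe sets did, and 2 had them above, where 6.70% did. By the brightest probe set of each gene, 7 of the 10 genes had a negative log2 fold change, as did 9934 of all 18193 genes. The median was -0.42 over the members, against -0.04 over all genes. The 6 were both probe sets of Jun and the brighter ones of Fosl2 and Jund, with Atf3 and Ier2, so they come from 5 genes. As the members were chosen with earlier results of these data known, these shares are not independent of the values.

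**Figure D3:**
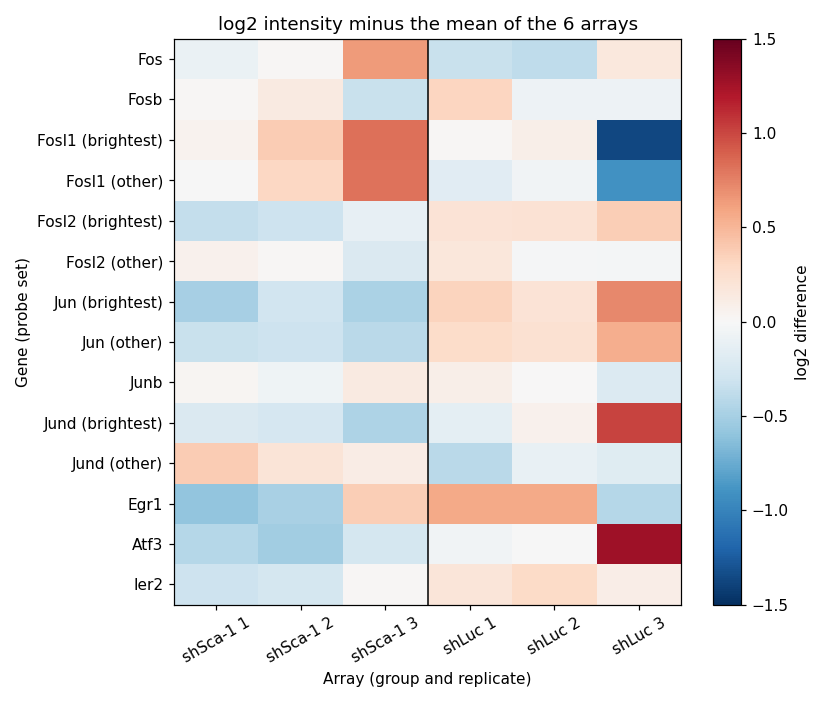
Log2 intensity of each of the 14 probe sets on each array, minus its mean over the 6 arrays (red higher, blue lower), with shSca-1 arrays left of the line and shLuc arrays right of it. Jun is below its mean on the 3 shSca-1 arrays, while Egr1, Fos and Fosl1 are higher on shSca-1 replicate 3 than on shSca-1 replicates 1 and 2.

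Replicate 3 of shSca-1 had more Egr1, Fos and Fosl1 signal than the other shSca-1 arrays. Its intensity was 1.88 times their mean for Egr1, 1.60 times for Fos and 1.51 and 1.57 times for the probe sets of Fosl1. Among the 9 member genes with a mean log2 value of 6 or more, 3 were over 1.5 times on this array, beside 4.16% of 9939 such genes in all. Jun did not share this, at 0.944 times on its brighter probe set. Of 28 other immediate early genes at that level, 2 were over 1.5 times on this array and 3 were lower there by more than that factor, as were 203 of the 9939. In the lists described below, 7 of 22 AP-1 targets and 2 of 15 related leucine zipper genes at that level were over 1.5 times. So were 2 of 29 MAP kinase and SRF cofactor genes, 2 of 20 phosphatases and feedback inhibitors and 2 of the 5 basal markers. The rise was thus not particular to the members. Ier3, a survival gene picked with its values known, as was Ccn2, read 2435, 2447 and 4893 on the shSca-1 arrays, against 3422, 3402 and 2697 on the shLuc arrays. Ccn2, the gene of a matricellular growth factor, went the other way, at 2093, 2069 and 387 on the shSca-1 arrays, against 371, 310 and 2924 on the shLuc arrays. The basal marker Trp63 varied like Ier3, at 1531, 1464 and 2898 on the shSca-1 arrays, against 2950, 2870 and 939 on the shLuc arrays. Replicates of a group have no order, and the source of this spread was not tested.

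The genes of related leucine zipper factors lay lower where they passed. This list and those below were written with earlier results of these data known, so their shares are not independent of the values. Of 23 listed, 21 were measured, and 4 were lower and 0 higher at the study's thresholds, where 1.52% of all genes were lower and 0.528% higher. Whether the listed factors pair with Jun or Fos proteins in these cells was not tested. Creb5, a factor of the cyclic AMP response family, read 21.1, 23.9 and 24.3 on the shSca-1 arrays, against 108, 85.0 and 95.3 on the shLuc arrays, with shSca-1 values below the array medians. Its log2 fold change was -2.05 (SE 0.21, adjusted p = 0.057 from limma). Atf5, a stress-linked factor, had -1.40 (SE 0.25, adjusted p = 0.18 from limma), Ddit3, which encodes the stress factor CHOP, had -1.29 (SE 0.26, adjusted p = 0.22 from limma) and Creb1, a factor that binds the cyclic AMP element, had -0.84 (SE 0.14, adjusted p = 0.15 from limma). Without shLuc replicate 3 these 4 passed an adjusted p under 0.05 in limma, where 2.73% of all genes were lower and 1.17% higher. The list's median log2 fold change was -0.22.

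Among 35 other immediate early genes, 2 were lower at the study's thresholds, beside 1.52% of all genes, and 0 higher, beside 0.528%, and the median log2 fold change was -0.17. Srf, which encodes the serum response factor, read 274, 315 and 313 on the shSca-1 arrays, against 685, 708 and 401 on the shLuc arrays. The groups did not overlap, and shLuc replicate 3 was the nearest to the shSca-1 arrays. Srf had a log2 fold change of -0.95 (SE 0.23, adjusted p = 0.29 from limma) and -1.21 without shLuc replicate 3 (adjusted p = 0.0029 from limma). Plk3, the gene of a stress-responsive kinase, had -1.03 (SE 0.26, adjusted p = 0.31 from limma). Leaving out that array gave -0.94, with an adjusted p of 0.12 from limma. Without it, at an adjusted p under 0.05, 4 of the 35 were lower, beside 2.73% of all genes, and 0 higher, beside 1.17%. The 4 were Srf, Rhob, Sik1 and Ier5, of which the last 3 were picked with their values known. On all 6 arrays the groups overlapped for those 3, and Ier5, an immediate early gene linked to the heat shock response, was at 0.07 with all arrays and -0.38 without shLuc replicate 3. Rhob, a small GTPase gene, read 1187, 1259 and 1126 on the shSca-1 arrays, against 2112, 2248 and 654 on the shLuc arrays, so that the fitted difference was -0.30 (log2) with all 6 arrays and -0.87 without shLuc replicate 3, with limma giving an adjusted p of 0.87 and of 0.0039.

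Of 38 listed MAP kinase and SRF cofactor genes, 30 were measured. At those thresholds 1 was lower, beside 1.52% of all genes, and 0 were higher, beside 0.528%, with a median log2 fold change of -0.04. The lower gene was Map3k1, a kinase upstream of JNK, which phosphorylates Jun. It read 156, 189 and 193 on the shSca-1 arrays, against 377, 360 and 245 on the shLuc arrays, a log2 fold change of -0.85 (SE 0.20, adjusted p = 0.27 from limma). Map2k3, a kinase that activates p38, had 0.43 (SE 0.09, adjusted p = 0.24 from limma), under the fold of 1.5. Without shLuc replicate 3, Map2k3 was higher and Map3k1 lower, with adjusted p of 0.027 and 0.010 from limma.

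Of 22 MAP kinase phosphatases and feedback inhibitors, 1 was lower, beside 1.52% of all genes, and 0 were higher, beside 0.528%, with a median of -0.24. Spry2, an inhibitor of receptor tyrosine kinase signaling, read 523, 441 and 507 on the shSca-1 arrays, against 830, 739 and 785 on the shLuc arrays. No shSca-1 array reached a shLuc array, and the log2 fold change was -0.68 (SE 0.11, adjusted p = 0.15 from limma, and 0.021 without shLuc replicate 3). Dusp3, a phosphatase of ERK and JNK, had -0.36 (SE 0.10, adjusted p = 0.35 from limma).

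Genes known from the literature as AP-1 targets lay the other way from Jun where they passed. Of 28 listed, 24 were measured. Of these 5 were higher, beside 0.528% of all genes, and 0 lower, beside 1.52%, with a median log2 fold change of 0.32, or -0.02 without shLuc replicate 3. They were Mmp9, Ccl2, Il6, Timp1 and Ereg, which encode a gelatinase, a monocyte chemokine, a cytokine, a protease inhibitor and the EGF receptor ligand epiregulin. Mmp9 read 347, 421 and 256 on the shSca-1 arrays, against 17.95, 21.4 and 6.74 on the shLuc arrays, where all values lay below the array medians. Its fitted log2 difference, 4.61 (SE 0.45, adjusted p = 0.057 from limma) and 4.09 without shLuc replicate 3, therefore rests on dim values and its size is uncertain. Ccl2, Il6 and Timp1 had 3.23, 3.09 and 0.78 (adjusted p = 0.057, 0.20 and 0.060 from limma). On the shLuc arrays Ccl2 read 75.3, 60.1 and 29.8, and Il6 read 44.1, 23.2 and 113. Of these, only Ccl2 on shLuc replicate 3 and Il6 on shLuc replicate 2 lay below the array medians. All 5 have other known regulators, and the first 4 were known to be higher in these data when the list was written. Ereg read 1002, 981 and 1737 on the shSca-1 arrays, against 686, 652 and 720 on the shLuc arrays, a log2 fold change of 0.80 (SE 0.22, adjusted p = 0.35 from limma, and 0.11 without shLuc replicate 3). Without that array, Mmp9, Ccl2, Il6, Timp1 and the cyclin gene Ccnd1 were higher at an adjusted p under 0.05 in limma, beside 1.17% of all genes, and 0 were lower, beside 2.73%.

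The collagenase and stromelysin genes, textbook targets of AP-1, followed single arrays. Mmp13 read 64.8, 80.4 and 1096 on the shSca-1 arrays, against 455, 393 and 9.92 on the shLuc arrays. Mmp3 read 438, 474 and 2229 on the shSca-1 arrays, against 1031, 982 and 31.1 on the shLuc arrays. Both were highest on shSca-1 replicate 3 and lowest on shLuc replicate 3, and their log2 fold changes were 0.56 (SE 1.69, adjusted p = 0.94 from limma) and 1.29 (SE 1.39, adjusted p = 0.82 from limma). Without shLuc replicate 3 both turned, to -1.24 (adjusted p = 0.64 from limma) for Mmp13 and -0.38 (adjusted p = 0.83 from limma) for Mmp3. The choice of Mmp13 and Mmp3 was made after seeing their values.

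**Figure D4:**
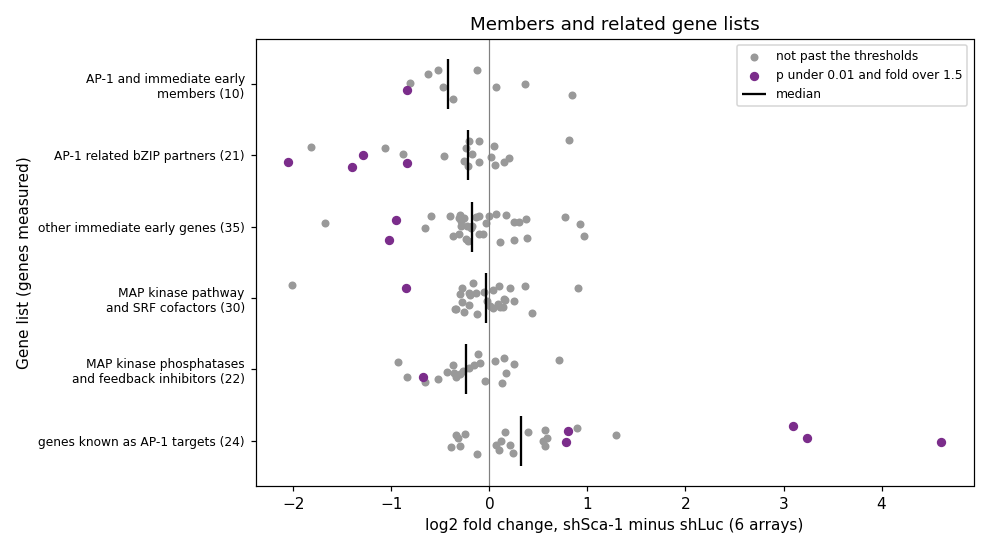
Differences of mean log2 intensity (shSca-1 minus shLuc, 6 arrays) for the 10 member genes and 5 lists of related genes; points are genes, purple where past the study's thresholds, and black lines are medians. The passing genes of related leucine zipper factors lie left of 0, and the 5 passing AP-1 targets lie right of it.

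Over the 6 arrays, the genes whose values ran most closely with those of Jun were Gpalpp1, Snhg12, Cep19, Actg2 and Zfp516. They were ranked by Pearson's r of log2 values with the brighter Jun probe set, among 9938 genes with a mean log2 value of 6 or more, and had r between 0.994 and 0.998. All points share the same 6 arrays in 2 groups, and r is given as a description. Actg2, a smooth muscle actin gene, read 37.2, 45.8 and 29.6 on the shSca-1 arrays, against 139, 107 and 299.9 on the shLuc arrays. Snhg12, a host gene of small nucleolar RNAs, read 187, 225 and 193 on the shSca-1 arrays, against 395, 329 and 499 on the shLuc arrays. As for Jun, both were lower on every shSca-1 array and highest on shLuc replicate 3, an order that the ranking by r selects for. Actg2 reached the mean log2 value of 6 only through its shLuc values.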

How the data were processed

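RNA of 3 shSca-1 and 3 shLuc samples was hybridised to 1-colour Affymetrix mouse 430 2.0 arrays. The authors made the deposited intensity values with dChip, normalizing arrays to an invariant set and fitting perfect-match minus mismatch signals. The values are linear, and 1.13% were 1 or less. The files give no detection calls, and the number of arrays limits precision.

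A floor of 1 was applied before the log2 step. The 64 control probe sets were removed, and the remaining 45037 were tested. limma 3.58.1 in R 4.3.3 (lmFit, eBayes with trend) compared shSca-1 with shLuc, with Benjamini-Hochberg adjustment over all probe sets, after testing on simulated data. Fold changes are differences of mean log2 values. GEO's platform annotation, updated through Entrez identifiers, gave 34945 probe sets 1 symbol, 932 several and 9160 none. Only probe sets with 1 symbol were named, and lists used the brightest of each gene. Ly6a was identified through the study's probe list. The 5 lists of related genes hold 146 entries, of which 132 were measured.

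All members were named. From each list, genes past an unadjusted p under 0.01 and a fold over 1.5 were named, or at least those with the 2 smallest p. The members and lists were chosen with earlier results of these data known. The alternatives were other scalings, floors, filters, variance models, the methods' t-test, fits that omitted 1 array at a time, and a replicate block. Paired replicate numbers had correlations of deviations of -0.04, -0.02 and -0.03 and were not treated as pairs.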

Additional observations from a re-analysis of the deposited data

How the results depend on the processing

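Of 223 values of the 14 member probe sets under alternative settings, 215 neither reversed nor changed their side of the thresholds, and 5 reversed. The 215 include Fosb at 0, with no direction, under floors of 16 and 64. The cause was not tested for any change. The dimmer Fosl2 probe set, at -0.09, was at 0.015 after quantile normalization and between -0.15 and 0.00027 when single arrays were left out. Fosb, at -0.12, lay between -0.22 and 0.014 and Junb, at 0.07, between -0.015 and 0.13 when single arrays were left out. The brighter Fosl2 probe set passed at -0.60 without shSca-1 replicate 3. Both Jun probe sets failed only under the methods' t-test with unequal variances (unadjusted p = 0.019 and 0.013, where limma gave 8.4e-04 and 6.1e-04), which left 0 of 14 past the thresholds. The 824 probe sets past the thresholds became 329 with a floor of 64, 335 under that t-test, and 507 to 1605 when single arrays were left out, the highest without shLuc replicate 3. The 13 passing genes of the related lists became 7 with a floor of 64 and 6 and 5 under the methods' t-test with equal and unequal variances. At an adjusted p under 0.05 the count of 0 became 5 after quantile normalization, 19 after centring, 24 and 7 with floors of 16 and 64, 32 with the dim probe sets left out, 56 with robust variances, 4 under the methods' t-test with equal variances, and 0 to 1244 when single arrays were left out. Of the members, 0 to 3 passed in those fits. With the replicate block, 587 probe sets passed the thresholds, both Jun probe sets among them, and no member's call changed. Dim probe sets such as those of Fosb limit what can be measured.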
